A study of Mus musculus with 9 samples.

Results

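The genes described here are the 5 subunits of the transcription factor NF-κB (Rela, Relb, Rel, Nfkb1 and Nfkb2) and 5 of its inhibitors (Nfkbia, Nfkbib, Nfkbie, Nfkbiz and Tnfaip3), 10 of the 48526 genes in the count table. They were found by their Ensembl identifiers. The family was selected on the increase of Nfkbiz at 1 h, so the changes at 1 h and the 6 h against 1 h differences of its members are given as a description, without a test. The comparison of 6 h with 0 h was not the one used for that choice and was tested. It shares its 0 h libraries with the comparison at 1 h, and earlier results of these data were known. The p of Nfkbiz at 6 h is therefore not independent of the choice. All 10 genes passed the filter on low counts and were among the 18858 genes tested.

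NSCs from the subependymal zone of adult C57BL/6 mice were cultured as neurospheres with EGF and FGF. Differentiation was induced on Matrigel by removing EGF while FGF was kept. The methods state that cells fixed at early times after induction were first seeded in medium with both factors. They do not say whether this applied to the RNA samples. Total RNA was taken from undifferentiated NSCs (0 h) and from cells collected 1 h or 6 h later. Each time point had 3 libraries, numbered 1 to 3, and all 9 come from cultured wild-type cells, with no genotype or drug compared. Neither the labels nor the methods state whether animals were pooled or what libraries of 1 number share, so p-values measure the spread between these samples, which may be technical. The libraries held 65871454 to 105592597 counts. Expression is given as CPM, counts normalised to the library size after TMM scaling, with mean ± SD over 3 libraries. All 10 NSC markers examined (Nes and Sox2 among them) were at a mean of at least 1 CPM, with a summed level of 6784 to 9698 CPM. Of 14 microglia and macrophage markers, Cd68 alone reached 1 CPM, and Itgam, C1qa, C1qb, C1qc, Tyrobp and Trem2 had no read in the 9 libraries. In bulk RNA, fewer cells of a type and less RNA per cell cannot be told apart.

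NF-κB is a dimer of REL-homology proteins that is held in the cytoplasm by inhibitors of the IκB family. Cytokines and other signals activate the IκB kinases, which mark the IκB proteins for degradation, and the dimer then enters the nucleus and binds κB sites in its target genes. Several inhibitor genes, Nfkbia and Tnfaip3 among them, are themselves textbook targets of NF-κB and close a negative feedback loop, and in the neurogenic niche the pathway is best known from inflammation and from the control of progenitor growth and differentiation.

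The promoters of 2 inhibitors that were called in opposite directions at 6 h with the replicate block are shown first. NF-κB binds κB sites, and whether it binds the matches shown here was not tested. Sequences are from RefSeq on the GRCm38.p6 assembly, run 5′ to 3′ on the gene's strand over the 250 bases before its start site, and have matches to the κB consensus, on either strand, in capitals. The window of Nfkbia lies at chr12:55492648-55492897 on the minus strand and that of Nfkbie at chr17:45555450-45555699 on the plus strand.
Nfkbia: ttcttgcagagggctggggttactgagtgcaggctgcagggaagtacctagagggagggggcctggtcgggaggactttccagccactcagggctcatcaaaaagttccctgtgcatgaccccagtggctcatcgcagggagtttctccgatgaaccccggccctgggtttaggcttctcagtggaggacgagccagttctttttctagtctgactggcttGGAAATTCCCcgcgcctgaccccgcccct
Nfkbie: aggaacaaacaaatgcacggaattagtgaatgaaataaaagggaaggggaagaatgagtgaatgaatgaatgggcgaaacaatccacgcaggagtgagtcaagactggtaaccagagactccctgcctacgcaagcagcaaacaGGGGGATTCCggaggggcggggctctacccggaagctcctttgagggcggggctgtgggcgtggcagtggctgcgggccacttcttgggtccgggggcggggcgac

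Windows of 300 bases (250 before and 50 after the start) were available for 7 of the 10 genes, Nfkbia, Nfkbib, Nfkbie, Rel, Rela, Nfkb2 and Tnfaip3. The κB consensus matched in 5 of these 7 genes, all but Nfkbib and Rela, against 5.14% of 27025 genes with a window and 4.51% of all 32851 windows. The match of Nfkbia spanned bases -29 to -20 from the start and that of Nfkbie bases -106 to -97. The matches of the other 3 genes are shown with 8 bases on each side, to let the sites be compared. Nfkb2 had 4, at chr19:46304698-46304708 and chr19:46304726-46304735 before the first of its 3 start sites and at chr19:46305459-46305468 and chr19:46305705-46305714 around the second. The last of these also lies in the window of the third. That of Rel lay at chr11:23771051-23771061, and those of Tnfaip3 at chr10:19015526-19015535 and chr10:19015413-19015422.
Nfkb2, bases -39 to -29: atcgtcacGGGAATTCCCCccctcggg
Nfkb2, bases -11 to -2: ggccgaaaGGGGCTTTCCcggctgga
Nfkb2, bases -236 to -227 from the second start: cgacggcaGGAATGTCCCcacaaaag
Nfkb2, bases 11 to 20 from the second start: gtattttcGGGACTTTCCtaagcagc
Rel, bases -92 to -82: taagcagcGGGAAATCCCCccccctcc
Tnfaip3, bases -125 to -116: ctcacgcgGGGACACCCCggggcggg
Tnfaip3, bases -12 to -3: tttccatcGGAAATCCCCctgttggc

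In Rel and in the first Nfkb2 site the consensus matched on both strands, shifted by 1 base, so the capitals span 11 bases. The AP-1 site TGANTCA was found in the windows of Nfkb2, Nfkbie and Tnfaip3, 3 of 7 genes, against 8.97% of all genes, and the CRE (TGACGTCA) and the CArG box, which respond to cyclic AMP and to serum, matched in none of the 7. A match is a description of the sequence and says nothing about binding. Of the genes with a κB match, Nfkb2 was called higher at 6 h, Nfkbie higher and Nfkbia lower only with the replicate block, and Rel and Tnfaip3 were not called.

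**Figure D1:**
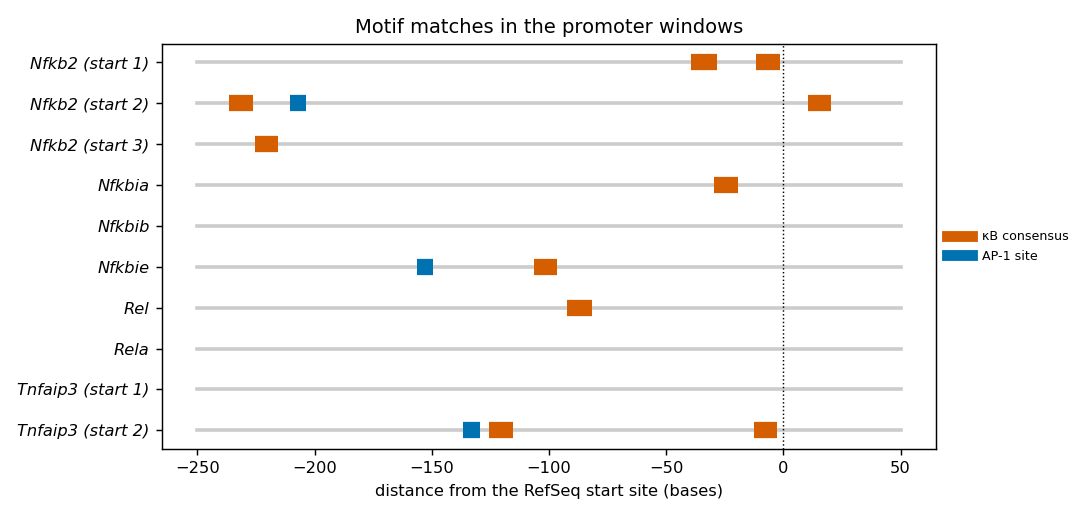
Matches of the κB consensus (orange) and the AP-1 site (blue) in the RefSeq promoter windows of 7 genes, with the distance from the start site in bases on the x axis and 1 line per annotated start site. Nfkb2 has 3 start sites and Tnfaip3 has 2, and 7 of the 10 windows hold a κB match.

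Nfkbiz (ENSMUSG00000035356, chr16:55811375-55838899, minus strand, GRCm38) encodes IκBζ, a nuclear IκB protein that binds NF-κB on chromatin and can activate as well as inhibit its targets. The values that chose the family were 24.9, 24.9 and 27.1 CPM at 0 h and 173.2, 158.1 and 178.9 CPM at 1 h, in replicates 1, 2 and 3. The 1 h libraries lay far above the 0 h libraries, with a log2 fold change of 2.73 (SE 0.11), the 5th highest rise of the 18858 genes. At 6 h the 3 libraries held 46.8, 55.5 and 43.1 CPM, which is 48.5 ± 6.35 CPM against 25.6 ± 1.27 CPM at 0 h, and every 6 h library was between the 0 h and the 1 h libraries. The 6 h level was 1.89-fold that at 0 h (log2 fold change 0.92, SE 0.10, adjusted p = 0.00767, edgeR's quasi-likelihood test with Benjamini-Hochberg adjustment) and 3 of 3 replicates were higher. Without 0 h replicate 1 the adjusted p was 0.0528, and the call held without each of the other 8 libraries. It held in 9 of 9 such fits with the replicate number as a block. From 1 h to 6 h the log2 difference was -1.81 (SE 0.10), and within the 3 replicates it ranged from -2.05 to -1.51.

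To compare Nfkbiz with the rest of the family, each level was divided by the length of the gene's merged exons in kilobases. Nfkbiz made up 9.78%, 10.7% and 9.92% of the summed level of the 10 genes in the 0 h libraries, 41.7%, 41.5% and 39.6% at 1 h, and 16.8%, 20.3% and 14.97% at 6 h. Among the 4 IκB genes alone its mean share was 22.2 ± 1.99% at 0 h, 61.8 ± 2.85% at 1 h and 37.4 ± 5.79% at 6 h. The ratio of Nfkbiz to Nfkbia levels per kilobase was 0.42 ± 0.03 at 0 h, 2.37 ± 0.26 at 1 h and 1.01 ± 0.23 at 6 h, with no overlap between the libraries of the 3 time points. The summed level of the 5 subunits was 26.8 ± 1.13, 27.2 ± 1.47 and 29.3 ± 0.979 CPM per kilobase over the 3 time points, and that of the other 3 IκB genes was 18.1 ± 2.70, 21.1 ± 3.73 and 16.3 ± 1.90 CPM per kilobase.

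The genes whose pattern over the 9 libraries was most like that of Nfkbiz were taken from the 319 genes that averaged at least 1 CPM with a log2 range of at least 1 between time points. They were Nfil3 (Pearson r = 0.98 in log2 CPM), Zfp36 (0.98), Atf3 (0.96), Nr4a1 (0.96) and Adamts1 (0.96), a description over 9 libraries that share 3 time points. Nfil3 and Atf3 encode bZIP transcription factors, Nr4a1 an orphan nuclear receptor, Zfp36 an mRNA decay factor and Adamts1 a secreted metalloprotease. The rise at 1 h differed in size between them, as Nfil3 went from 4.65 ± 0.0912 to 22.5 ± 3.57 and then 9.99 ± 1.90 CPM and Zfp36 from 2.73 ± 0.388 to 6.06 ± 0.0353 and 3.93 ± 0.202 CPM. Within the family the r with Nfkbiz was 0.72 for Relb, 0.58 for Rel and 0.49 for Nfkbia, and it was -0.55 for Nfkb1.

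**Figure D2:**
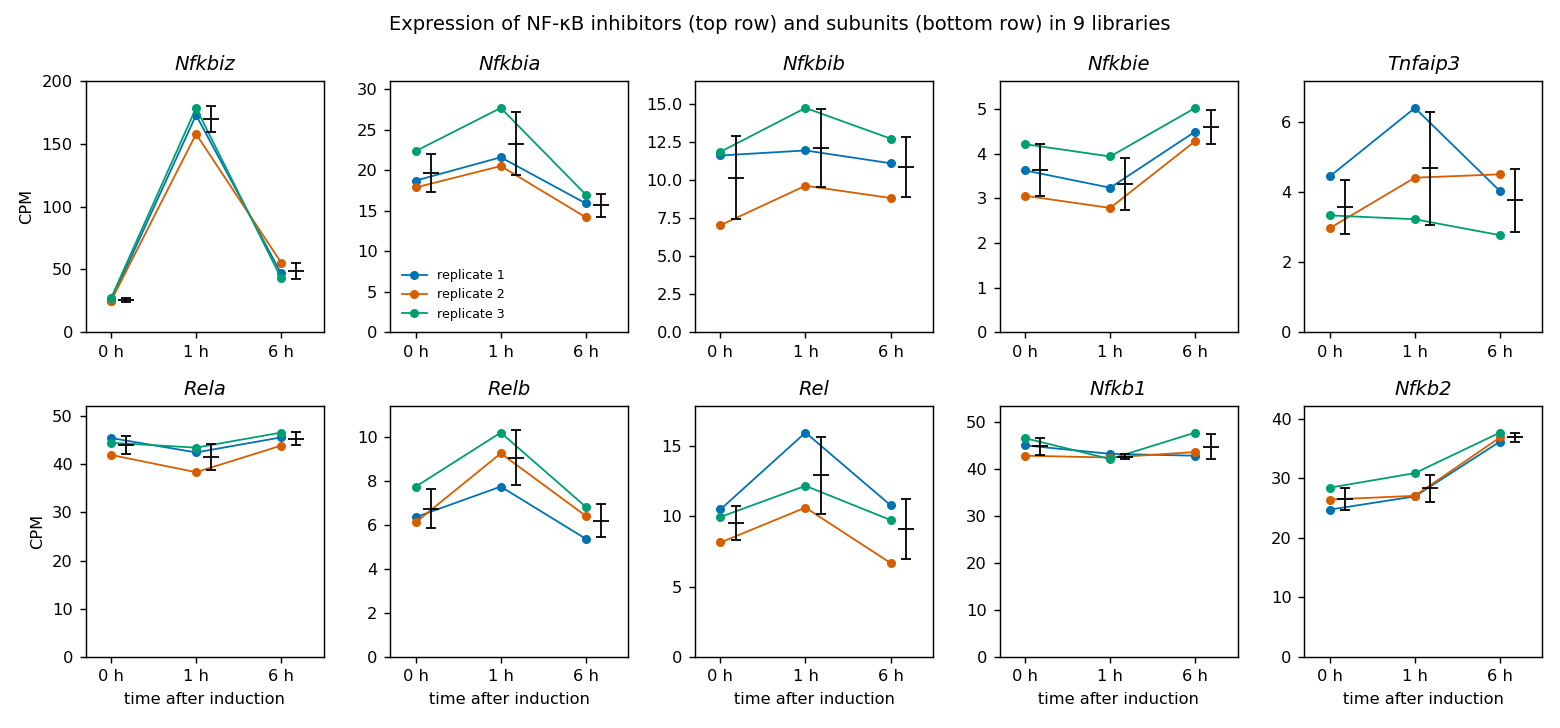
CPM (y axis, from 0, its own scale in each panel) by time after induction (x axis) for the 5 inhibitors (top) and the 5 subunits (bottom), with 1 line per replicate and the mean ± SD of 3 libraries in black. Nfkbiz reaches 170 ± 10.7 CPM at 1 h, Nfkb2 reaches 36.9 ± 0.761 CPM at 6 h, and Nfkbia is highest at 1 h and lowest at 6 h in each replicate.

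Nfkbia (ENSMUSG00000021025, chr12:55489410-55492647, minus strand) encodes IκBα, the inhibitor that is degraded and resynthesised fastest after a signal. Its level was 18.7, 17.9 and 22.4 CPM at 0 h, 21.6, 20.5 and 27.7 CPM at 1 h and 15.9, 14.2 and 17.0 CPM at 6 h. Each replicate was higher at 1 h and lower at 6 h than at 0 h, and the 6 h libraries lay below all 0 h libraries. At 1 h the log2 fold change was 0.24 (SE 0.15), a description. At 6 h it was -0.33 (SE 0.15) and did not pass the test without the pairing of replicates (adjusted p = 0.289), whereas with the replicate number as a block Nfkbia fell by 0.32 on the log2 scale (SE 0.07, adjusted p = 0.00196). The blocked call held without each of the 9 libraries. Its promoter, with the κB match at bases -29 to -20, is the first of those shown above.

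Nfkbie (ENSMUSG00000023947, chr17:45555703-45563169, plus strand) encodes IκBε, which binds dimers with RelA and c-Rel. It held 3.62, 3.05 and 4.21 CPM at 0 h, 3.24, 2.78 and 3.94 CPM at 1 h and 4.49, 4.28 and 5.02 CPM at 6 h. All 6 h libraries lay above all 0 h libraries, and 3 of 3 replicates were lower at 1 h than at 0 h. The log2 fold change at 6 h was 0.34 (SE 0.19, adjusted p = 0.395) without the block and 0.35 (SE 0.10, adjusted p = 0.0147) with it. The blocked call was lost without 0 h replicate 2 (adjusted p = 0.0735) or 6 h replicate 2 (adjusted p = 0.0691), and also when values were corrected for GC content and transcript length (adjusted p = 0.0542). With 207 to 538 counts per library, Nfkbie was among the 2 members with the fewest reads.

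Nfkbib (ENSMUSG00000030595, chr7:28758251-28767512, minus strand) encodes IκBβ, a more slowly degraded inhibitor. It held 11.6, 7.02 and 11.8 CPM at 0 h, 11.9, 9.61 and 14.7 CPM at 1 h and 11.1, 8.80 and 12.7 CPM at 6 h, and replicate 2 was the lowest at every time point. At 6 h the log2 fold change was 0.10 (SE 0.25, adjusted p = 0.904), higher in 2 of 3 replicates, and the time points overlapped. Nfkbib shares exon bases with 2 genes on the opposite strand, 314 with Ccer2, at no more than 0.0430 CPM, and 42 with Sirt2, at 79.3 to 102.2 CPM. The strand setting of the counting is not given in the sources used here, so reads of the shared bases cannot be assigned.

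Tnfaip3 (ENSMUSG00000019850, chr10:19000910-19015657, minus strand) encodes a ubiquitin-editing enzyme that ends signalling upstream of the IκB kinases. Its level was 4.45, 2.97 and 3.34 CPM at 0 h, 6.41, 4.41 and 3.23 CPM at 1 h and 4.03, 4.51 and 2.77 CPM at 6 h. The replicates did not move together, since 2 of 3 were higher at 1 h and 1 of 3 was higher at 6 h. The log2 fold change at 6 h was 0.07 (SE 0.30, adjusted p = 0.950), on 220 to 410 counts per library.

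Rela (ENSMUSG00000024927, chr19:5637483-5648130, plus strand) encodes the main transactivating subunit of the canonical pathway. It held 45.5, 41.9 and 44.5 CPM at 0 h, 42.5, 38.4 and 43.5 CPM at 1 h and 45.6, 43.9 and 46.6 CPM at 6 h. Each replicate was slightly lower at 1 h, but the ranges at 0 h and 6 h overlapped, with a log2 fold change of 0.05 (SE 0.07, adjusted p = 0.838) at 6 h. Nfkb1 (ENSMUSG00000028163, chr3:135584655-135691547, minus strand) encodes the precursor of the partner with which RelA forms the classical heterodimer. Its libraries stayed between 42.1 and 47.7 CPM, with a log2 fold change of -0.00253 (SE 0.07, adjusted p = 0.993) at 6 h, the smallest of the family.

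Rel (ENSMUSG00000020275, chr11:23736847-23770970, minus strand) encodes c-Rel, an inducible subunit best known from lymphocytes. It held 10.5, 8.14 and 9.95 CPM at 0 h, 16.0, 10.6 and 12.2 CPM at 1 h and 10.8, 6.68 and 9.74 CPM at 6 h. All 1 h libraries lay above all 0 h libraries, although 1 h replicate 2 was only just above 0 h replicate 1. Relb (ENSMUSG00000002983, chr7:19606217-19629438, minus strand), the subunit of the non-canonical pathway, showed the same order, with 6.35, 6.11 and 7.73 CPM at 0 h, 7.74, 9.25 and 10.2 CPM at 1 h and 5.36, 6.40 and 6.81 CPM at 6 h. Here too the 1 h libraries lay above those at 0 h, with replicate 1 at 1 h almost level with replicate 3 at 0 h. The log2 fold change at 1 h was 0.44 (SE 0.22) for Rel and 0.43 (SE 0.16) for Relb, a description. By 6 h neither differed from 0 h in the test, with -0.07 (SE 0.22, adjusted p = 0.925) for Rel and -0.12 (SE 0.16, adjusted p = 0.791) for Relb.

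Nfkb2 (ENSMUSG00000025225, chr19:46304320-46312385, plus strand) encodes the precursor that both inhibits RelB and is processed into its partner. It held 24.7, 26.4 and 28.4 CPM at 0 h, 26.9, 27.0 and 30.9 CPM at 1 h and 36.1, 36.8 and 37.7 CPM at 6 h. The 3 libraries at 6 h were close together and above all 6 earlier libraries. Nfkb2 was higher at 6 h than at 0 h by 0.48 on the log2 scale (SE 0.09, 1.39-fold, adjusted p = 0.0348), in 3 of 3 replicates, and was the only subunit that passed. Without the block this call was lost when any library but 1 h replicate 3 was left out (adjusted p up to 0.141) and with a correction for GC content and transcript length (0.35, adjusted p = 0.106), whereas with the block (adjusted p = 3.5e-05) it held in 9 of 9 such fits. The ratio of Nfkb2 to Nfkb1 levels per kilobase was 1.56 ± 0.10 at 0 h, 1.75 ± 0.16 at 1 h and 2.18 ± 0.08 at 6 h. With the longest transcript of each gene as its length the ratio was 0.64 ± 0.04, 0.72 ± 0.06 and 0.89 ± 0.03, so which of the 2 genes had the higher level depends on the length used. Nfkb2 shares 531 exon bases with the long noncoding RNA gene AC114539.1 on the opposite strand, whose level was not analysed here. It shares 299 with Psd, also on that strand, at 12.4 to 21.1 CPM, whose 0 h and 6 h ranges overlapped.

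**Figure D3:**
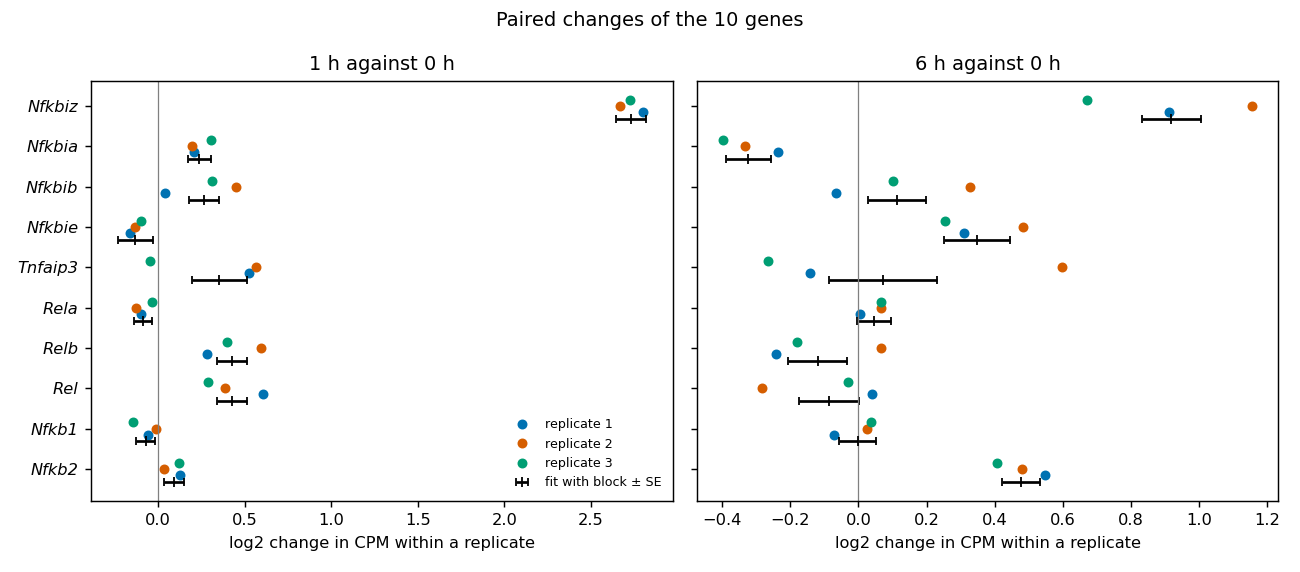
Log2 change in CPM (x axis) of each gene at 1 h (left) and 6 h (right) against 0 h of the same replicate, with 1 coloured point per replicate and the log2 fold change ± SE of the fit with the replicate block in black. At 6 h the 3 points of Nfkbiz, Nfkb2 and Nfkbie are above 0 and those of Nfkbia are below 0, while those of Tnfaip3 lie on both sides.

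Over the 10 genes, the median log2 fold change was 0.25 at 1 h and 0.06 at 6 h, against a median of 0.00 over all tested genes at both times. At 1 h, 1 of 10 members (Nfkbiz) was called higher, against 0.0424% of all tested genes. With the block 3 of 10 (Nfkbiz, Rel and Relb) were called higher, against 1.36% of all genes, and 2.14% were called lower. Since the 1 h values of Nfkbiz chose the family, nothing is read from these counts. The blocked call of Rel at 1 h was lost without any 0 h library or without 1 h replicate 1 or 2. That of Relb was lost without 0 h replicate 2 or 3 or 1 h replicate 2. Blocked fits without 1 library called 126 to 325 genes higher at 1 h over all genes, against 257 with all libraries.

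At 6 h against 0 h, 2 of 10 members (Nfkbiz and Nfkb2) were called higher, against 1.46% of all genes. None was called lower by edgeR without the block, against 0.955% of all genes, with 0 at an unadjusted p under 0.05, 0 by DESeq2 and 1 by either tool with the block. At that unadjusted p, 1621 of 18858 genes were lower. With the block 3 of 10 (Nfkbiz, Nfkb2 and Nfkbie) were called higher, against 17.4% of all genes, and 1 of 10 (Nfkbia) was called lower, against 17.5%. The family was chosen on Nfkbiz, so its part in these 6 h counts is not independent of that choice. Without the block the call of Nfkb2 held in 1 of 9 fits without 1 library. The median size of the change at 6 h was 0.11 on the log2 scale over the members and 0.20 over all genes, which were not matched for expression level. At 1 h it was 0.25 over the members and 0.11 over all genes, given as a description. From 1 h to 6 h, 1 member (Nfkbiz) was called lower, against 0.663% of all genes, and 1.48% of all genes were called higher. With the block, 4 members (Nfkbiz, Nfkbia, Rel and Relb) were called lower, against 17.5% of all genes, and 2 (Nfkb2 and Nfkbie) higher, against 18.0%, again as a description.

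Levels of different genes are compared per kilobase of merged exons. At 0 h Rela had the highest level, 14.3 ± 0.591 CPM per kilobase, followed by Nfkbia (12.2 ± 1.49), Nfkb2 (5.78 ± 0.403), Nfkbiz (5.11 ± 0.254), Nfkbib (4.68 ± 1.25), Nfkb1 (3.71 ± 0.155), Relb (1.73 ± 0.226), Rel (1.28 ± 0.165), Nfkbie (1.19 ± 0.190) and Tnfaip3 (0.496 ± 0.107). The libraries of Rela and Nfkbia overlapped, as did those of neighbours from Nfkb2 to Nfkb1 and those of Rel and Nfkbie, so these neighbours were not ordered beyond their spread. The place of Nfkb1 depends on the length used, because its longest transcript is much shorter than its merged exons and gives 10.8 CPM per kilobase, next after Rela and Nfkbia. At 1 h Nfkbiz came first with 33.9 ± 2.14 CPM per kilobase, apart from Nfkbia (14.5 ± 2.41) and Rela (13.5 ± 0.880). At 6 h Rela was again first (14.8 ± 0.445), and Nfkbia (9.75 ± 0.876) and Nfkbiz (9.66 ± 1.27) overlapped.

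**Figure D4:**
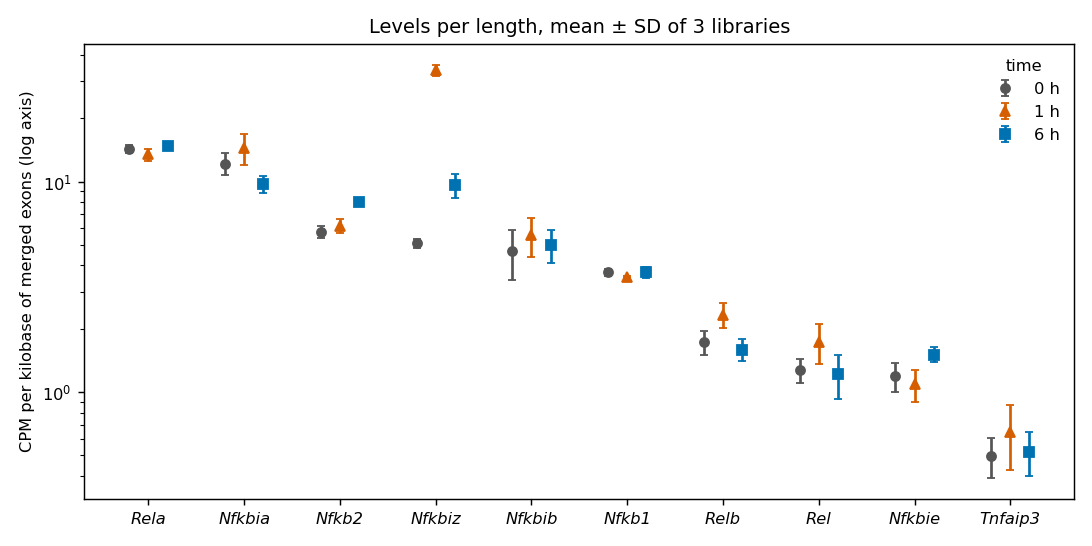
Level in CPM per kilobase of merged exons (log axis) for the 10 genes, ordered by their mean at 0 h, with the mean ± SD of 3 libraries per time point. Nfkbiz lies below Rela, Nfkbia and Nfkb2 at 0 h, above all others at 1 h with 33.9, and level with Nfkbia at 6 h.

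To place the family in its pathway, 92 other genes were listed by role, and 70 of them were tested. The list was chosen with earlier results of these data known, so its counts and p-values at 1 h are a description. Of the 10 ligands, Tnf and Cd40lg had no read and Il1b, Lta, Ltb and Tnfsf11 were too low to test, with at most 6 counts in a library, where 3 counts, taken as the limit that a count of 0 allows, amount to 0.0284 to 0.0455 CPM. Il18, which encodes a cytokine of the IL-1 family, was the only one of 4 tested ligands called without the block, against 1.46% of all genes called higher. It rose from 17.0 ± 0.991 to 27.8 ± 1.82 CPM at 6 h (log2 fold change 0.71, SE 0.10, adjusted p = 0.0159). That call was lost without any 0 h library or without 6 h replicate 1 or 3 (adjusted p up to 0.0879). It held in 9 of 9 such fits with the block. With the block Il33, another cytokine gene of that family and named after its values were seen, was called lower at 6 h (log2 fold change -0.62, adjusted p = 0.0105). It had 1.56 ± 0.809 CPM at 0 h and 0.987 ± 0.360 CPM at 6 h, and the call was lost without 0 h replicate 3 (adjusted p = 0.121) or 6 h replicate 3 (0.0585).

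Of 12 tested receptors, 1 rose and 2 fell at 6 h without the block, against 1.46% and 0.955% of all genes. With it 3 were called higher and 4 lower, against 17.4% and 17.5%. At 1 h 0 were called by edgeR without the block (0 at an unadjusted p under 0.05, 0 by DESeq2, 1 lower with the block, against 2.14% of all genes). At that unadjusted p, 276 of 18858 genes were higher and 459 lower at 1 h. Il1rap, the shared accessory chain of the IL-1 receptors, fell from 79.6 ± 4.93 to 37.7 ± 4.89 CPM (log2 fold change -1.08, SE 0.11, adjusted p = 0.00714). Tnfrsf12a, the receptor of TWEAK, fell from 53.0 ± 1.01 to 25.5 ± 3.57 CPM (-1.06, SE 0.12, adjusted p = 0.00817), a call that was lost without 0 h replicate 1 (adjusted p = 0.0501). Tnfrsf11a, the receptor RANK, named here after its values were seen because its mean was under 1 CPM, rose from 0.493 ± 0.134 to 1.70 ± 0.0218 CPM (1.78, SE 0.28, adjusted p = 0.0228), and this call was lost without any 0 h or 6 h library (adjusted p up to 0.116). The calls of Il1rap, Tnfrsf12a and Tnfrsf11a held in 9 of 9 such fits with the block.

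None of the 19 tested adaptors and kinases was called by edgeR without the block at 6 h, against 1.46% of all genes higher and 0.955% lower. At an unadjusted p under 0.05, 6 were lower and 0 higher, against 1621 lower and 1752 higher of 18858 genes. DESeq2 called 2 lower, against 813 of 18819 genes. The block gave 1 higher and 6 lower, against 17.4% and 17.5% of all genes. Ikbke, which encodes an IκB kinase-related kinase, went from 4.02 ± 1.00 to 1.63 ± 0.443 CPM, with a log2 fold change of -1.30 (SE 0.27, adjusted p = 0.0509). It was called lower by DESeq2 and with the block (adjusted p = 1.2e-05), where the call held without each of the 9 libraries. Of the genes for the 3 subunits of the IκB kinase, Chuk went from 95.0 to 79.9 CPM (-0.25, adjusted p = 0.154) and was called lower with the block (adjusted p = 0.00118). Ikbkb (-0.08, adjusted p = 0.293) and Ikbkg (0.04, adjusted p = 0.664) were not called with it. These 4 genes were named after their values were seen.

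Among 16 tested IκB-like proteins and negative regulators, 1 fell at 6 h and none rose by edgeR without the block, against 0.955% and 1.46% of all genes. At an unadjusted p under 0.05, 1 was higher, against 1752 of 18858 genes. DESeq2 called 1 higher and 2 lower, against 929 and 813 of 18819 genes. The block gave 4 higher and 3 lower, against 17.4% and 17.5% of all genes. N4bp1, which encodes an inhibitor of NF-κB signalling, fell from 174 ± 11.3 to 124 ± 9.35 CPM (log2 fold change -0.48, SE 0.09, adjusted p = 0.0395), and without the block this call was lost when any library but 1 h replicate 3 was left out (adjusted p up to 0.152). It held in 9 of 9 such fits with the block. Nfkbid, which like Nfkbiz encodes a nuclear IκB protein, was at 1.03 ± 0.0534 CPM at 0 h, 1.42 ± 0.111 CPM at 1 h and 1.68 ± 0.403 CPM at 6 h. Its log2 fold change at 6 h was 0.71 (SE 0.21, adjusted p = 0.126), and it passed with the block (adjusted p = 0.00929). The blocked call held in 6 of 9 fits without 1 library (adjusted p up to 0.0703). Bcl3, the remaining nuclear IκB gene, had at most 4 counts in a library and was not tested.

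Known NF-κB target genes were tested in 19 of 30 cases. Csf2, Cxcl2 and Bcl2a1a had no read, and Il6, Lcn2, Cxcl1, Ccl5, Ccl20, Nos2, C3 and Saa3 had at most 12 counts in a library. Gadd45b, a stress-induced gene, was the only target called at 1 h without the block, with 1.73 ± 0.229 CPM at 0 h and 9.21 ± 0.468 CPM at 1 h (log2 fold change 2.41, SE 0.21, adjusted p = 0.0120, up in 3 of 3 replicates), and it was still higher at 6 h with 5.63 ± 1.38 CPM (1.70, SE 0.21, adjusted p = 0.00972). Csf1, the growth factor of macrophages, fell from 66.1 ± 1.99 to 42.2 ± 4.85 CPM at 6 h (-0.65, SE 0.09, adjusted p = 0.0178). Without the block these calls did not hold in every fit that left out 1 library. At 1 h such fits called 1 to 7 genes higher over all genes, against 8 with all libraries. The log2 fold change of Gadd45b at 1 h stayed between 2.34 and 2.52 in them. Gadd45b was not past the threshold at 1 h in fits that lacked any 1 of the 0 h libraries or replicates 1 or 3 of the 1 h libraries (adjusted p up to 0.0919) or at 6 h without 0 h replicate 2 or 3 (up to 0.0597), nor was Csf1 without any 0 h library or 6 h replicate 1 or 2 (up to 0.0940). Both genes kept these calls in 9 of 9 such fits with the block.

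With the block, 5 of 19 target genes rose and 2 fell at 1 h, against 1.36% and 2.14% of all genes, and 2 rose and 12 fell at 6 h, against 17.4% and 17.5%. As for the members, nothing is read from the counts at 1 h. The 5 that rose were Gadd45b, the prostaglandin synthase gene Ptgs2 (0.177 to 1.25 CPM, adjusted p = 0.00019), the chemokine genes Cxcl10 (1.02 to 2.02 CPM, adjusted p = 0.00551) and Ccl2 (5.35 to 7.93 CPM, adjusted p = 0.0147) and the cytokine gene Lif (7.12 to 10.8 CPM, adjusted p = 0.00700), named after their values were seen. Leaving out 1 library changed calls here too. Lif lost its blocked call at 1 h without 0 h replicate 1 or 3 or 1 h replicate 1 (adjusted p up to 0.0768), Ccl2 without 0 h replicate 3 or 1 h replicate 1 or 3 (up to 0.179) and Cxcl10 without 0 h replicate 1 (0.0722). Of these 5, Ccl2, Cxcl10 and Lif were among the 12 that were lower at 6 h than at 0 h with the block, and Ccl2 went down to 1.62 CPM (adjusted p = 4.2e-07). The 6 h call of Lif held in only 3 of 9 fits without 1 library (lost without any 0 h library, 1 h replicate 2 or 6 h replicate 1 or 2, adjusted p up to 0.225). Across the 70 tested genes of the list, 1 was called higher at 1 h without the block, against the 0.0424% of all genes given above, and 3 were called higher and 4 lower at 6 h, against 1.46% and 0.955%. With the block 6 were higher and 6 lower at 1 h, and 11 higher and 26 lower at 6 h, beside the same shares of all genes as for the targets. The median log2 fold change was -0.01 at 1 h and -0.06 at 6 h, against 0.00 over all genes.

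**Figure D5:**
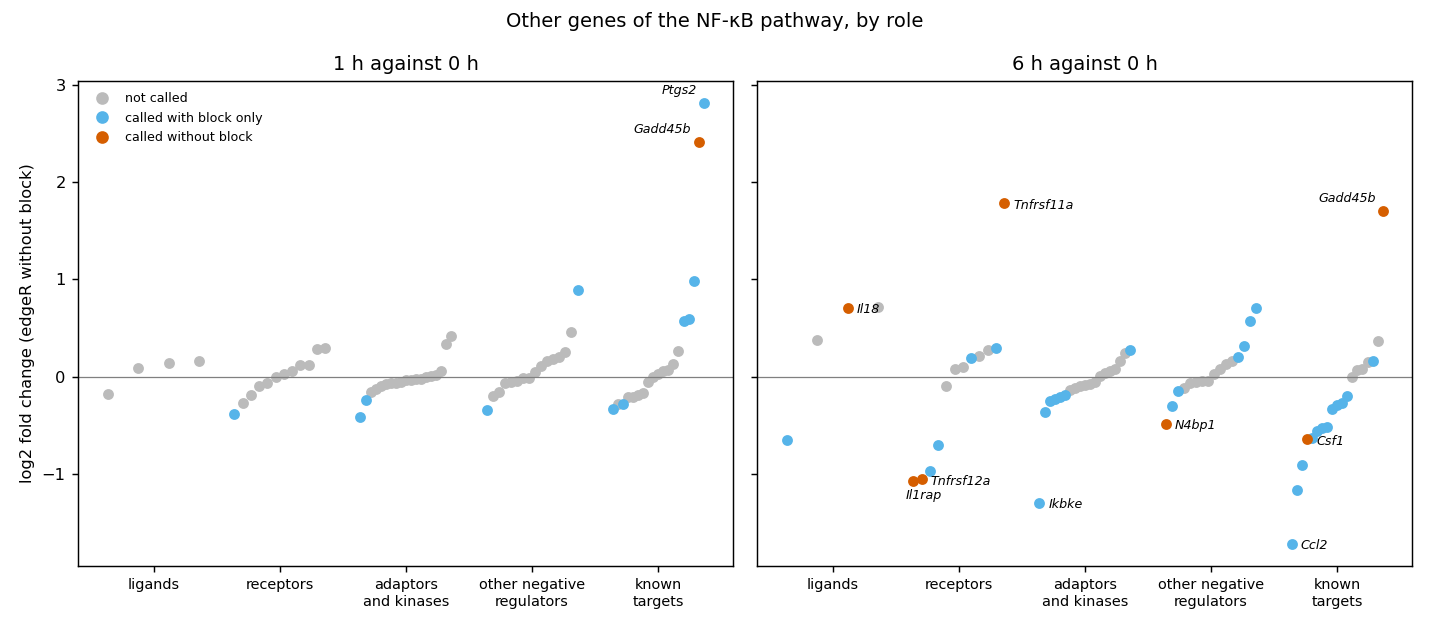
Log2 fold change of edgeR without the block (y axis) for the 70 tested pathway genes, grouped by role and ordered by value within a role, at 1 h (left) and 6 h (right) against 0 h. Genes called without the block are orange, those called with the block only are blue and the others grey, and Gadd45b is the only orange gene at 1 h.

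Markers of other cell types moved with time to different degrees. The summed level of 5 neuroblast and neuron markers ranged over 19.5 to 38.6 CPM, 26.0 to 41.7 CPM and 58.4 to 121.5 CPM in the libraries of the 3 time points in order, mostly Syt1, and 4 of the 5 reached a mean of 1 CPM. The 14 microglia and macrophage markers summed to 4.60 to 6.79 CPM, 3.34 to 5.09 CPM and 3.84 to 4.17 CPM, and the 6 endothelial markers to 4.97 to 19.99 CPM, 4.71 to 18.6 CPM and 3.23 to 10.8 CPM. The 5 ependymal markers summed to 47.4 to 88.5, 52.8 to 93.3 and 39.6 to 61.2 CPM, the 5 oligodendrocyte markers to 6.29 to 6.84, 4.91 to 6.88 and 7.71 to 8.22 CPM, and the 4 pericyte markers to 1.01 to 4.10, 1.06 to 3.32 and 1.24 to 7.29 CPM. The part of the neuronal and oligodendrocyte markers, which were higher in all 6 h libraries than in all 0 h libraries, in the changes of Nfkbiz, Nfkb2, Nfkbia and Nfkbie at 6 h was not tested.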

How the data were processed

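RNA-seq was performed by the authors on cultured NSCs in 3 libraries per time point, and reads were aligned to mm10 (GRCm38) with STAR 2.5.3a, with FastQC and DESeq2 1.22.1 also named in the submitters' processing notes. The deposited values are raw counts of reads per Ensembl gene, and the strand setting is not given in the sources used here. Symbols and positions are from GENCODE M21, which held 48058 of the 48526 identifiers. No libraries were duplicated (chi-square per degree of freedom of at least 13.6).

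The tools were edgeR 4.0.16 and, for alternatives, DESeq2 1.42.0 in R 4.3.3, and Python 3.11.15. Genes were filtered with filterByExpr (minimum count 10, minimum total 15), scaled with TMM (factors 0.97 to 1.02) and fitted over 9 libraries with time as the group (glmQLFit, glmQLFTest). P-values were adjusted over the 18858 genes with the Benjamini-Hochberg method, with a threshold of 0.05. Log2 CPM used a prior count of 2. The fits were also run on simulated counts with changes set at 6 h only. That outcome is not given here, and nothing is read from it. The κB consensus, the CArG box, TGACGTCA and TGANTCA were searched on both strands.

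Libraries with the same replicate number in the labels deviated together from the mean of their time point (r between 0.733 and 0.800 in 9 pairs). The numbers therefore pair the samples. The fit without the block leaves this pairing out, so a gene that it did not call is not shown to be unchanged. Its common biological coefficient of variation was 0.277, against 0.0627 with the block. The fit with the replicate block is given where it changes a call. The 18 other pairs had r between -0.462 and -0.314. Deviations from a mean of 3 libraries sum to 0, so this negative sign follows from the positive r and is no separate evidence.

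The members and lists were chosen with earlier results of these data known. All members are named. Pathway genes are named, per role and comparison, for the 3 that rose most and the 3 that fell most past the threshold, at a mean of at least 1 CPM and with the same direction in 3 of 3 replicates, plus Bcl3 and Nfkbid. Il33, Tnfrsf11a, Ikbke, Chuk, Ikbkb, Ikbkg, Ptgs2, Cxcl10, Ccl2 and Lif were named after their values were seen. The alternatives were DESeq2, the block, RLE scaling, library totals, no filter, a mean of at least 1 CPM, 6 libraries only, GC and length trends removed (splines with 4 degrees of freedom), an adjusted p under 0.01 for the pathway list, another gene length and leaving out each library. Leaving out libraries in the fit with the block was chosen after seeing the data.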

Additional observations from a re-analysis of the deposited data

Results flagged for a closer look

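In 3 genes of the family the changes at 1 h and at 6 h against 0 h had opposite signs in every replicate. The share of all tested genes with this pattern was not counted, so nothing is read from the number of genes. Nfkbia was higher at 1 h and lower at 6 h, with a 6 h against 1 h log2 difference of -0.57, Nfkbie was lower at 1 h and higher at 6 h (0.47), and Rela was lower at 1 h and higher at 6 h (0.13). Both changes use the same 0 h libraries, and the difference between them is the 6 h against 1 h change, which with the replicate block was called for Nfkbia and Nfkbie and not for Rela and is given as a description. That of Rela is small, with a log2 change at 6 h of 0.00 to 0.07 within replicates.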

How the results depend on the processing

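Nfkbiz passed at 6 h against 0 h in 10 of 10 alternatives and in 8 of 9 fits without 1 library, and Nfkb2 in 7 of 10 and 1 of 9. The block changed no call of a member at 6 h against 0 h other than those of Nfkbia and Nfkbie. The replicate block, DESeq2 with the block and the correction for GC content and length with the block gave 3, 4 and 3 members called higher at 1 h, 1, 1 and 2 lower at 6 h, and from 1 h to 6 h 2, 2 and 2 higher and 4, 4 and 5 lower. For the pathway list these 3 settings gave 6, 3 and 6 higher and 6, 7 and 5 lower at 1 h, and 11, 9 and 10 higher and 26, 26 and 27 lower at 6 h. Over all genes they called 257, 368 and 293 higher and 404, 561 and 409 lower at 1 h. At 6 h they called 3282, 3006 and 3057 higher and 3299, 3120 and 3912 lower. From 1 h to 6 h it was 3401, 3020 and 3202 higher and 3309, 3265 and 4106 lower, of 18858, 18858 and 18779 genes. DESeq2 without the block called 1 member higher and 3 lower from 1 h to 6 h, and 2 list genes higher at 1 h and 8 lower at 6 h. Of 18819 genes it called 932 higher and 763 lower from 1 h to 6 h. It called 55 of them higher at 1 h and 813 lower at 6 h. Library totals and a mean of at least 1 CPM each called 1 member higher from 1 h to 6 h. Over all genes these called 351 of 18858 and 381 of 13606 higher. No filter, 6 libraries only and the GC and length correction without the block each left 1 member higher at 6 h, and 6 libraries left 2 list genes lower. Over all genes these settings called 155 of 31382, 85 of 18312 and 224 of 18779 higher, and 6 libraries called 28 lower. At an adjusted p under 0.01 the list had 0 higher at 1 h, and 1 higher and 2 lower at 6 h. The share of all genes at that threshold was not counted. Without 1 library, the members called higher were 1 at 1 h and 0 to 2 at 6 h, and with the block 1 to 4 and 2 to 3, with 1 lower at 6 h. From 1 h to 6 h they were 0 higher and 1 lower, and with the block 2 to 3 and 4 to 5. The list then had 0 to 2 higher and 0 lower at 1 h and 0 to 3 higher and 1 to 4 lower at 6 h, and with the block 3 to 6 and 1 to 7 at 1 h and 4 to 14 and 20 to 30 at 6 h. Over all genes, these fits without the block called 1 to 7 higher and 0 lower at 1 h. At 6 h they called 27 to 305 higher and 11 to 203 lower. From 1 h to 6 h it was 16 to 130 higher and 14 to 69 lower. With the block they called 126 to 325 higher and 84 to 561 lower at 1 h. At 6 h with the block it was 2203 to 3996 and 2147 to 4055. From 1 h to 6 h it was 2699 to 3294 and 2443 to 3363 with the block.

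Log2 fold changes that did not pass changed sign at 6 h. With the GC and length correction, without and with the block, Nfkbib was at -0.0227 and -0.0154, Rela at -0.0909 and -0.0889 and Nfkb1 at 0.0240 and 0.0236, and Nfkb1 was also at 0.0185 (library totals), 0.00993 (no filter), 0.00896 (mean of at least 1 CPM) and 0.00207 (6 libraries). Without 1 library, the value ranged from -0.102 to 0.237 for Nfkbib, from -0.0524 to 0.0275 for Nfkb1, from -0.215 to 0.114 for Rel, from -0.0716 to 0.257 for Tnfaip3 and from -0.583 to 0.0589 for Lif, and with the block from -0.0413 to 0.0349 for Nfkb1, from -0.163 to 0.00436 for Rel and from -0.137 to 0.250 for Tnfaip3. Relb was called lower with the GC and length correction and the block (adjusted p = 0.0344). The longest transcript in place of the merged exons gave, at 0 h, 10.8 CPM per kilobase for Nfkb1, 16.2 for Rela, 6.89 for Nfkb2, 6.23 for Nfkbiz and 2.06 for Relb. The cause of these changes was not tested. Tnfaip3, with 220 to 410 counts per library, had the largest standard error of the members (0.30).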
